A study of Mus musculus with 11 samples.

Results

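The CXC chemokine genes *Cxcl1*, *Cxcl2*, *Cxcl3*, *Cxcl5*, and *Pf4* were followed in lymphatic endothelial cells (LECs) cultured with skin cancer cells. They were chosen by gene symbol. All 5 were among the 191 genes listed for LECs, and *Cxcl3* was the 1 member also among the 290 genes listed for HaCa4 cancer cells. The data were bulk RNA sequencing of 11 libraries of mouse cell lines. HaCa4 is a line of skin squamous cell carcinoma, and the LECs are a conditionally immortal line (imLEC) that carries a temperature-sensitive SV40 large T antigen and was expanded with IFN-γ, with more than one clone used interchangeably in the study. Single cultures gave the groups HaCa4 control (n = 2) and LEC control (n = 3). Co-cultures of both lines were separated by FACS after 24 h into HaCa4-sorted (n = 3) and LEC-sorted (n = 3), using the dye CFSE to mark the cancer cells and an antibody to the endothelial protein CD31 to mark LECs. Staining and sorting are described for the co-cultures, so the effect of sorting and that of the partner cells cannot be told apart. Values are TPM, a transcript abundance already divided by transcript length, so levels of different genes can be compared.

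CXC chemokines are small secreted proteins that steer leukocytes along a gradient. *Cxcl1*, *Cxcl2*, *Cxcl3*, and *Cxcl5* belong to the group with a Glu-Leu-Arg motif before the paired cysteines, which binds the receptor CXCR2 and draws neutrophils out of the blood. *Pf4*, also called *Cxcl4*, lacks this motif and is best known as a product of platelets, so the description as neutrophil-attracting covers the other 4 members and includes *Pf4* by its place among them. In many cell types the motif-bearing members are induced by inflammatory cytokines through NF-κB, and endothelial cells are among their known sources. The libraries come from cultures of the named lines, and neutrophil migration is not part of these data.

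The 5 genes lie together on chromosome 5 of GRCm38.p6. *Cxcl5* spans 90759298 to 90761625, *Pf4* 90772435 to 90773383, *Cxcl3* 90786101 to 90788093, *Cxcl1* 90891245 to 90893121, and *Cxcl2* 90903899 to 90905938. The stretch from *Cxcl5* to *Cxcl2* measured 147 kb and held 7 annotated genes, all of them protein-coding. The 2 further genes in it, *Ppbp* and *Cxcl15*, also encode CXC chemokines and were not analysed here.

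Promoter sequences from RefSeq (GRCm38.p6) were matched for 4 of the 5 members, all but *Cxcl5*. The 250 bases before the annotated start are shown 5′ to 3′ for these members, all on the plus strand. A relation between these sequences and the size of the rise in LECs was not tested. Capitals mark matches to GGGAATTTCC, one form of the element bound by NF-κB, and to ATAAAAGG, a TATA-type box.
Cxcl1, chr5:90890995-90891244: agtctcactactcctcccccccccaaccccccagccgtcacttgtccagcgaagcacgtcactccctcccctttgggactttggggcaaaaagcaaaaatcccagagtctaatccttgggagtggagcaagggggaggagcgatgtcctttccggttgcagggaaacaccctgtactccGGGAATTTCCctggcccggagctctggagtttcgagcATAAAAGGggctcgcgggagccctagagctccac
Cxcl2, chr5:90903649-90903898: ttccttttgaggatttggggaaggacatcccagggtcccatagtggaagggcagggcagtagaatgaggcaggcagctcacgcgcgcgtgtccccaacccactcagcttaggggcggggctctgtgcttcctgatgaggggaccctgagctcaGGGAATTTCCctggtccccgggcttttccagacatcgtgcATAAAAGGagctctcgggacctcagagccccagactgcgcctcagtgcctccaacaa
Cxcl3, chr5:90785851-90786100: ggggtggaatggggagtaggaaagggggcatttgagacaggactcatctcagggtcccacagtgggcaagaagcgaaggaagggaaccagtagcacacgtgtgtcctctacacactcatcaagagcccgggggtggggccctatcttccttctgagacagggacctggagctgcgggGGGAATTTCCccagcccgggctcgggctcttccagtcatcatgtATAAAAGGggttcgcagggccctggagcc
Pf4, chr5:90772185-90772434: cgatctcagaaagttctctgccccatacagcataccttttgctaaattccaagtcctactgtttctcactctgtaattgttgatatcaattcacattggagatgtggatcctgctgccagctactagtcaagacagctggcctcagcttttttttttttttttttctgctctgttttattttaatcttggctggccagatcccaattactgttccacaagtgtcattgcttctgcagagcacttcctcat
Both strings were taken from the *Cxcl1* promoter after the sequences had been read, so its own matches are given, and both strands were searched. The NF-κB element ended 62 bases before the start in *Cxcl1*, 64 in *Cxcl3*, and 88 in *Cxcl2*, and the TATA-type box followed it in each. Over the 32851 promoters of the same length in the table, 0.0852% held the first string and 1.54% the second. Both strings together occurred in 3 promoters, those of *Cxcl1*, *Cxcl2*, and *Cxcl3*. As the strings were picked from these sequences, the shares are a description, and rarity was not tested. In the *Pf4* window neither string was found, which says only that these letters are not in this window. A match is a description of the sequence, and binding was not measured.

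**Figure D1:**
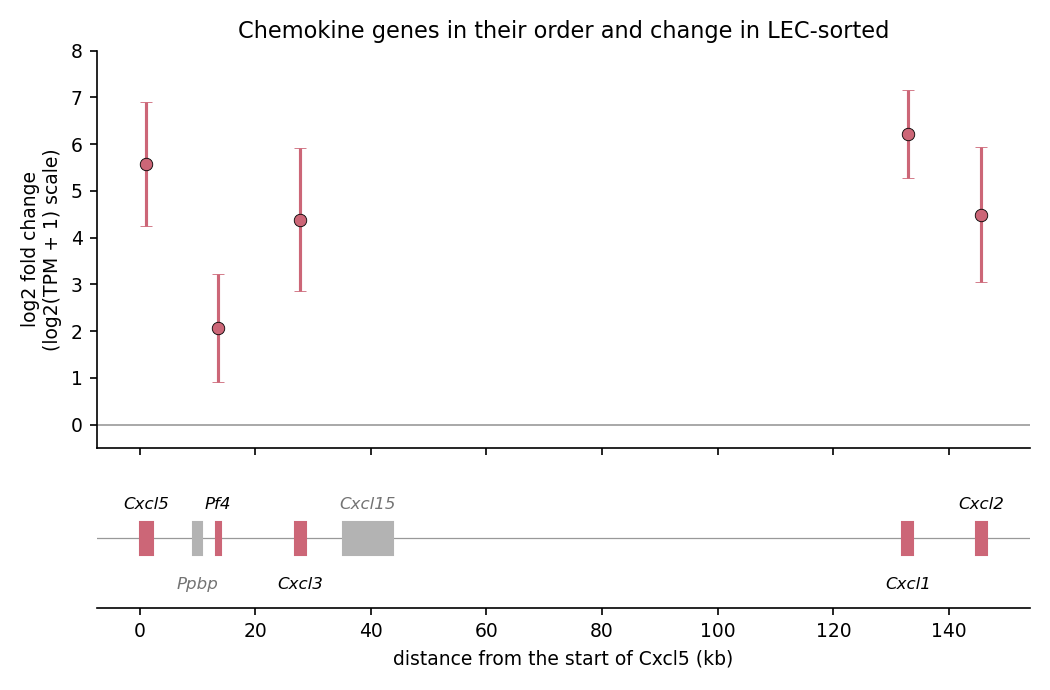
The lower panel shows the 7 annotated genes by their distance in kb from the start of *Cxcl5*, with members in red and genes not analysed in grey. The upper panel gives each member's log2 fold change in LEC-sorted against LEC control on the log2(TPM + 1) scale with its 95% confidence interval from limma. *Pf4*, between *Cxcl5* and *Cxcl3*, has the smallest change, 2.07, against 4.39 to 6.21 in the others.

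All 5 members were upregulated in LECs after co-culture, and no LEC-sorted library overlapped with a control in any of them. The change was tested with limma on log2(TPM + 1) over all 191 listed genes, and a gene passed when it moved by 0.5 or more on the log2 scale with a Benjamini-Hochberg adjusted p no higher than 0.05. All 5 passed, but so did 96.3% of the listed genes, or 63.9% when only rises are counted. Libraries did not overlap in 96.9% of the listed genes, or 63.9% with the sorted ones higher. The study had selected the listed genes as changed in these same libraries, so passing the test sets no member apart from the rest of the list. The median log2 fold change of the 5 members was 4.49, and that of all listed genes was 0.87. No source says whether the replicates were separate cultures, so the p-values measure the spread between these libraries, which may be technical. In bulk RNA, fewer cells of a type and less RNA per cell cannot be told apart.

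*Cxcl1*, a main CXCR2 ligand in the mouse, was the most abundant member. It had 10.64, 12.36, and 19.24 TPM in controls 1 to 3 and 1203.4, 1775.22, and 596.8 TPM in LEC-sorted replicates 1 to 3. Every sorted library was thus far above every control, by at least 31.0 times between the closest pair. The mean was 14.1 ± 4.55 TPM (SD, n = 3) before and 1192 ± 589 TPM (SD, n = 3) after co-culture, which is 84.6-fold higher. Among the 191 listed genes it moved from rank 113 to rank 6 by mean level. Its log2 fold change of 6.21 was the third largest of the list at a pseudocount of 1 (95% confidence interval 5.27 to 7.15, adjusted p = 6.74e-05 from limma). At a pseudocount of 0.1 *Cxcl1* changed by 6.30, less than *Cxcl2* at 6.59 and *Cxcl3* at 6.39.

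*Cxcl5*, an epithelial and endothelial neutrophil attractant, came next in level after co-culture. LEC control had 1.29, 1.22, and 6.44 TPM, and LEC-sorted had 149.08, 289.28, and 94.17 TPM. Control 3 stood above the other controls, and the lowest sorted library was still 14.6 times higher than it. The mean rose 59.5-fold, the control mean being 2.98 ± 2.99 TPM (SD, n = 3) and the sorted mean 178 ± 101 TPM (SD, n = 3), and the log2 fold change was 5.58 (95% confidence interval 4.25 to 6.91, adjusted p = 0.000543 from limma). The fold of the means rested on control 3, without which it was 141.

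*Cxcl2* and *Cxcl3*, close relatives of *Cxcl1*, were close to 0 in LEC control. *Cxcl2* had 0.52, 0, and 0.24 TPM in controls 1 to 3, and 44.36, 48.5, and 8.58 TPM after co-culture. For *Cxcl3* the controls had 0.7, 0, and 0.26 TPM, and LEC-sorted libraries 1 to 3 had 40.69, 52.38, and 7.84 TPM. In both genes sorted replicate 3 was several times lower than the other two and yet at least 11.2 times above the highest control. The log2 fold change was 4.49 for *Cxcl2* (95% confidence interval 3.05 to 5.94, adjusted p = 0.0016 from limma) and 4.39 for *Cxcl3* (95% confidence interval 2.86 to 5.92, adjusted p = 0.0022 from limma). The levels of this pair ran in parallel after co-culture, where their log2 ratio on TPM + 1 lay between -0.11 and 0.12. In the controls both were too low for the ratio to say anything. The annotated transcripts of the pair have 61 stretches of 50 bases in common, 5.75% of those in *Cxcl2* and 6.31% of those in *Cxcl3*, and 11 stretches of 100 bases. How the authors assigned reads that match both genes is not given in the sources used here, so the division of such reads between *Cxcl2* and *Cxcl3* is uncertain. No other pair of members shared a stretch of 50 bases.

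*Pf4* changed less than the other members and, like *Cxcl1*, was present before co-culture. It had 9.76, 3.59, and 13.73 TPM in controls 1 to 3, and 50.04, 46.29, and 21.27 TPM after co-culture. The groups did not overlap, but the lowest sorted library was only 1.55 times the highest control. The mean of 9.03 ± 5.11 TPM (SD, n = 3) rose 4.34-fold to 39.2 ± 15.6 TPM (SD, n = 3). On the log2(TPM + 1) scale the change was 2.07 (95% confidence interval 0.91 to 3.23, adjusted p = 0.00798 from limma). Scaling all libraries to an equal median of the listed LEC genes lowered their log2 fold changes by a median of 0.61. These genes were selected as changed and mostly rose, so a lowering is built in. With this scaling *Pf4* kept a change of 1.48 (adjusted p = 0.0468 from limma).

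**Figure D2:**
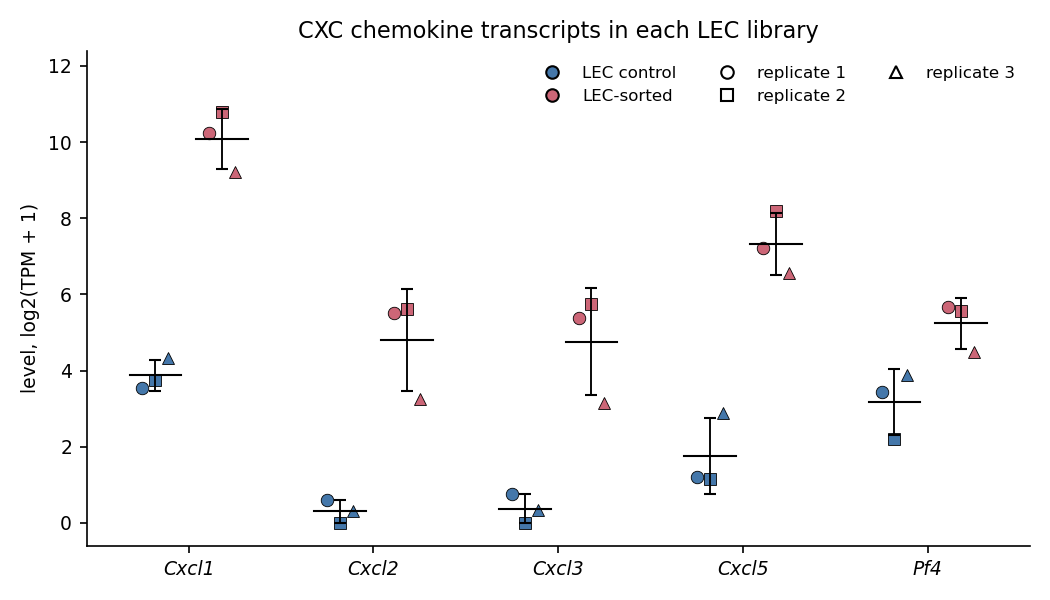
Each point is 1 LEC library, with blue for LEC control, red for LEC-sorted, and the symbol for the replicate number. The vertical axis is the level as log2(TPM + 1), and the horizontal lines and bars give the mean and SD of 3 libraries. The gap between the groups is widest in *Cxcl1* and narrowest in *Pf4*, and sorted replicate 3 is the lowest sorted library in all 5 genes.

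The order of the levels was *Cxcl1*, *Pf4*, *Cxcl5*, *Cxcl3*, and *Cxcl2* in LEC control and *Cxcl1*, *Cxcl5*, *Pf4*, *Cxcl2*, and *Cxcl3* in LEC-sorted. In the controls, the ranges of *Cxcl1* and *Pf4* overlapped, as did those of *Pf4* and *Cxcl5*, and those of *Cxcl3* and *Cxcl2*. In LEC-sorted, the lowest *Cxcl1* value lay above the highest *Cxcl5* value, and the lowest *Cxcl5* value above the highest of *Pf4*, *Cxcl2*, and *Cxcl3*. The ranges of these last genes overlapped. The sorted libraries also kept an order of their own. Replicate 2 was highest and replicate 3 lowest in *Cxcl1*, *Cxcl2*, *Cxcl3*, and *Cxcl5*, and replicate 1 was highest in *Pf4*. The summed TPM of all listed LEC genes was also highest in replicate 2 and lowest in replicate 3. The highest sorted value exceeded the lowest by 2.97 times in *Cxcl1*, 3.07 in *Cxcl5*, 5.65 in *Cxcl2*, 6.68 in *Cxcl3*, and 2.35 in *Pf4*.

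Together the 5 members came to 22.9, 17.2, and 39.9 TPM in single culture and 1488, 2212, and 729 TPM after co-culture, a 55.4-fold difference of the means. *Cxcl1* made up 80.9%, 80.3%, and 81.9% of this sum in the sorted replicates, a nearly constant share although the sum itself varied 3.04 times. In the controls its share was 46.4%, 72.0%, and 48.2%. *Pf4* made up 42.6%, 20.9%, and 34.4% of the sum in single culture, but 3.36%, 2.09%, and 2.92% after co-culture. *Cxcl5* held 9.62% ± 5.69 (SD, n = 3) of the control sum and 12.0% ± 1.72 (SD, n = 3) of the sorted sum, shares that overlapped between the groups. These are shares of the 5 genes alone. The CC chemokine *Ccl2* had a higher mean level than all of them together, at 1774 TPM in LEC control and 5137 TPM in LEC-sorted.

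**Figure D3:**
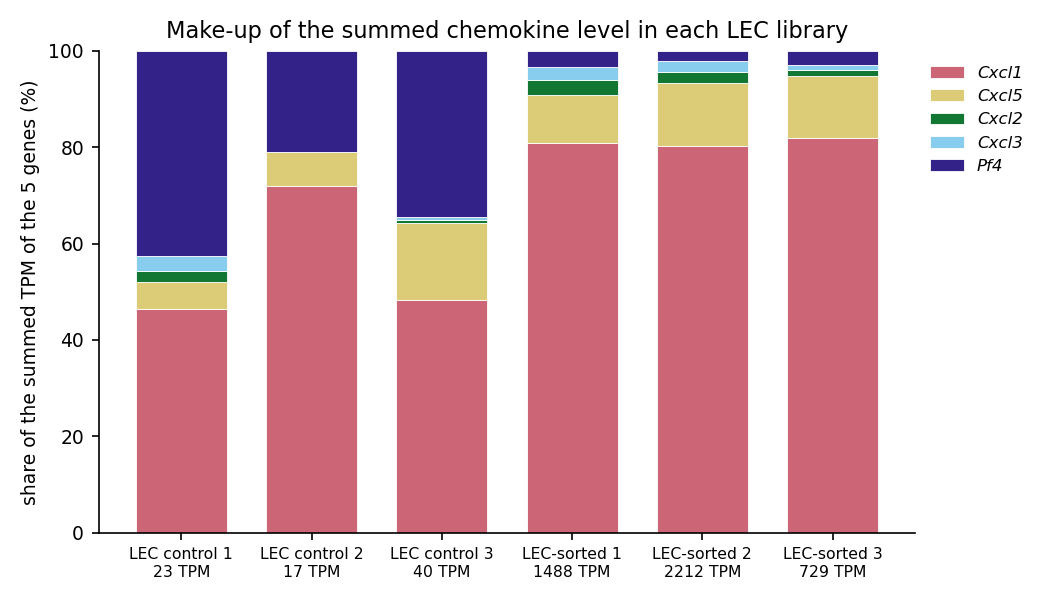
Each bar is 1 LEC library and shows the percent of the summed TPM of the 5 genes that each gene holds, with the sum under the bar. The *Cxcl1* share lies between 80.3% and 81.9% in the sorted libraries, and the *Pf4* share is at most 3.36% there against at least 20.9% in the controls.

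The ratio of a pair of members within a library does not depend on how that library was scaled, apart from the pseudocount of 1 used for pairs with *Cxcl2* or *Cxcl3*, which were at 0 in control 2. For the 10 pairs, the log2 ratio was compared between LEC-sorted and LEC control by an exact two-sided permutation test, which with 3 libraries against 3 cannot give a p below 0.1. In 6 pairs the libraries did not overlap. Over all pairs of listed LEC genes the share without overlap was 62.0%, with TPM + 1 in every pair. The pairs among *Cxcl1*, *Cxcl5*, and *Pf4* were taken without a pseudocount, so the measures differ for these. Relative to *Pf4*, the log2 ratio was higher in LEC-sorted by 4.09 for *Cxcl1*, 3.98 for *Cxcl5*, 2.42 for *Cxcl2*, and 2.32 for *Cxcl3*, each without overlap (exact permutation p = 0.1, adjusted p = 0.167 over the 10 pairs). The ratio of *Cxcl1* to *Cxcl5* was at 2.65 ± 0.94 (SD, n = 3) in the controls and 2.76 ± 0.22 (SD, n = 3) in LEC-sorted on the log2 scale, and the groups overlapped (exact permutation p = 1). With TPM + 1 this ratio was higher in LEC-sorted by 0.63, and the groups did not overlap (exact permutation, adjusted p = 0.143 over the 10 pairs). *Cxcl1* also rose above *Cxcl2* and *Cxcl3* by 1.72 and 1.82 on this scale, but both differences turned to -0.28 and -0.087 with a pseudocount of 0.1 in place of 1. Which of the 4 motif-bearing members changed most was thus not settled by these data, whereas the smaller change of *Pf4* kept its direction under every alternative run.

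The genes whose profile was most like that of a member were found by the root-mean-square difference between profiles of log2(TPM + 1) minus the control mean, over the 6 LEC libraries. These libraries fall into the same groups for every gene, so a small difference reflects mainly a similar size of change. *Cxcl1* and *Cxcl5* differed by 0.58, less than either differed from any other listed gene. Next to *Cxcl1* came *Lcn2*, encoding an iron-binding defence protein, at 0.74 and *Csf3*, the growth factor of neutrophils, at 0.77. *Cxcl2* and *Cxcl3* were each other's nearest gene, at 0.12, followed for both by *Csf2*, a myeloid growth factor, at 0.64 and 0.70. *Csf2* was also the gene outside the cluster nearest to *Cxcl5*, at 0.84. For *Pf4* the nearest were *Ier3*, *Nfkbiz*, and *Angptl4*, at 0.49, 0.52, and 0.55, and the nearest other member, *Cxcl3*, ranked only 115 of the other listed genes.

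Genes that act with these chemokines were followed from lists of their roles. Of 13 genes in a list for neutrophil growth and activation, which also holds broader factors such as *Csf1* and *Lif*, 9 were listed for LECs. All 9 rose, with a median log2 fold change of 2.31. *Csf3* went from 1.43, 0.79, and 0.84 TPM in single culture to 427.29, 468.73, and 78.03 TPM after co-culture, and *Csf2* from 0.41, 1.04, and 0.25 TPM to 55.37, 107.62, and 22.81 TPM. Both were highest in sorted replicate 2 and lowest in replicate 3, as were the 4 motif-bearing chemokines. All listed LEC genes together had the same order, at 3.40%, 3.85%, and 2.99% of total TPM in LEC-sorted replicates 1 to 3. Of 7 genes for rolling and adhesion of leukocytes, neutrophils among them, on endothelium, 3 were listed and all 3 rose, while *Icam1* and *Icam2* were not listed for LECs. The 3 that rose were *Sele* (E-selectin), with means of 31.0 ± 1.93 and 101 ± 29.2 TPM before and after (SD, n = 3 each), *Selp* (P-selectin), and *Vcam1*. Of 19 CC chemokines, which act mainly on monocytes and lymphocytes, 4 were listed and all 4 rose, *Ccl20* by 3.99 and *Ccl2* by 1.55 on the log2 scale. Of 19 other CXC chemokines and CXC receptors, 0 were listed for LECs, and these were not analysed here. Of all listed LEC genes 63.9% passed with a rise, and these counts are a description of the list.

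Among 27 genes of the inducing receptors and NF-κB, 10 were listed for LECs and all 10 passed with a rise, with a median log2 fold change of 1.28, where 63.9% of all listed LEC genes passed with a rise. *Il1r1*, the receptor for interleukin-1, averaged 37.2 ± 12.1 TPM in single culture and 81.2 ± 5.95 TPM after co-culture (SD, n = 3 each). *Nfkb1*, an NF-κB subunit, had 64.84, 87.72, and 73.55 TPM in single culture and 156.9, 156.76, and 145.16 TPM after co-culture. *Nfkbiz*, a co-activator of NF-κB targets, rose by 2.06 on the log2 scale, and *Zc3h12a*, a nuclease that degrades inflammatory transcripts, by 1.72. The transcript changes of these regulators, at most 2.06 on the log2 scale, were smaller than those of the 4 motif-bearing chemokines, at least 4.39. In HaCa4 cells these lists held few listed genes, and 30.0% of all listed genes passed. *Selp* rose by 1.38 on the log2 scale, *Cx3cl1*, a chemokine with a membrane-bound form, fell by 0.97, and *Ikbke*, a kinase of the NF-κB pathway, fell by 0.70. These calls were lost without the trend in limma, without HaCa4 control replicate 2, and without HaCa4-sorted replicate 3, where 0 listed HaCa4 genes passed (161, 70, and 126 at an unadjusted p under 0.05). *Cxcl12*, *Lif*, *Icam1*, and *Icam2* were listed for HaCa4 and did not pass the test. Their log2 fold changes were 1.01, -0.71, 1.86, and 1.83, and not passing does not mean unchanged. In none of them did a sorted library overlap with a control, which held for 96.6% of the listed HaCa4 genes. *Icam1*, *Icam2*, and *Cxcl12* had at most 0.14 TPM in HaCa4 control. In HaCa4-sorted replicates 1 to 3, *Icam1* had 0.82, 7.27, and 3.46 TPM, and *Icam2* had 0.82, 4.97, and 3.1 TPM. *Cxcl12* had 0.23, 2.41, and 1.48 TPM there. Every endothelial marker listed for HaCa4, *Icam2* among them, was likewise lowest in sorted replicate 1 and highest in replicate 2. The part of endothelial RNA in these values was not tested. The study reported *Icam1* and *Cxcl12* as upregulated in HaCa4 cells after co-culture, and *Icam1* also by qRT-PCR. Of 19 CC chemokines, 0 were listed.

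**Figure D4:**
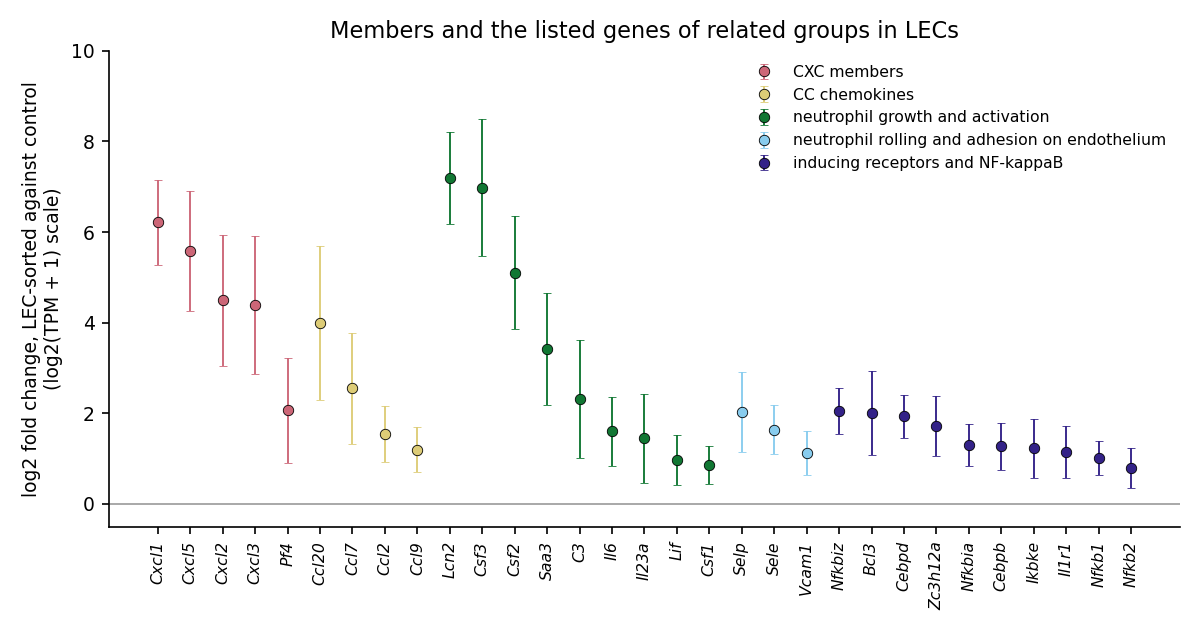
Log2 fold changes in LEC-sorted against LEC control on the log2(TPM + 1) scale, with 95% confidence intervals from limma, for the 5 members and the listed genes of 4 related groups. *Lcn2* and *Csf3* have the highest points, at 7.19 and 6.97, and the genes of the NF-κB group lie between 0.79 and 2.06.

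*Cxcl3* was the member listed for both cell lines, and it was much more abundant in the cancer cells. HaCa4 control had 182.69 and 105.01 TPM and HaCa4-sorted 290.83, 317.72, and 287.19 TPM. The groups did not overlap, which held for 96.6% of the listed HaCa4 genes and for 63.1% with the sorted ones higher. The sorted replicates were nearly alike while the controls differed. The mean of 144 ± 54.9 TPM (SD, n = 2) rose 2.08-fold to 299 ± 16.7 TPM (SD, n = 3). On the log2(TPM + 1) scale this came to 1.10 (95% confidence interval 0.55 to 1.65, adjusted p = 0.0308 from limma). Of the listed HaCa4 genes 30.0% passed, and 15.9% did so with a rise. The call did not hold under every alternative. Without HaCa4 control replicate 2 the change was 0.70. Without HaCa4-sorted replicate 3 the change was 1.13, no smaller than with it, but the call was lost (adjusted p = 0.0769 from limma). In that setting 0 listed HaCa4 genes passed, with 126 at an unadjusted p under 0.05. The call was also lost when libraries were scaled to an equal median (0.24, adjusted p = 0.554 from limma). That median was taken over the listed genes, which were selected as changed and mostly rose. This scaling thus lowers rises by construction.

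On the log2(TPM + 1) scale the change of *Cxcl3* was larger in LECs than in HaCa4 cells by 3.29 (95% confidence interval 1.55 to 5.03, adjusted p = 0.00268 in limma's test of the interaction over the 23 genes listed for both lines). Of these 23 genes 82.6% passed, and 39.1% with the larger change in LECs. In TPM the order was the other way, with a gain of 155 TPM in HaCa4 cells and 33.3 TPM in LECs, a difference that was not tested. LEC control held 0.222% of the mean level in HaCa4 control, and LEC-sorted 11.3% of the mean in HaCa4-sorted. Every LEC-sorted value lay below every HaCa4 control value. These levels come from tables with a separate listing for each cell line, so the percentages are a description.

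**Figure D5:**
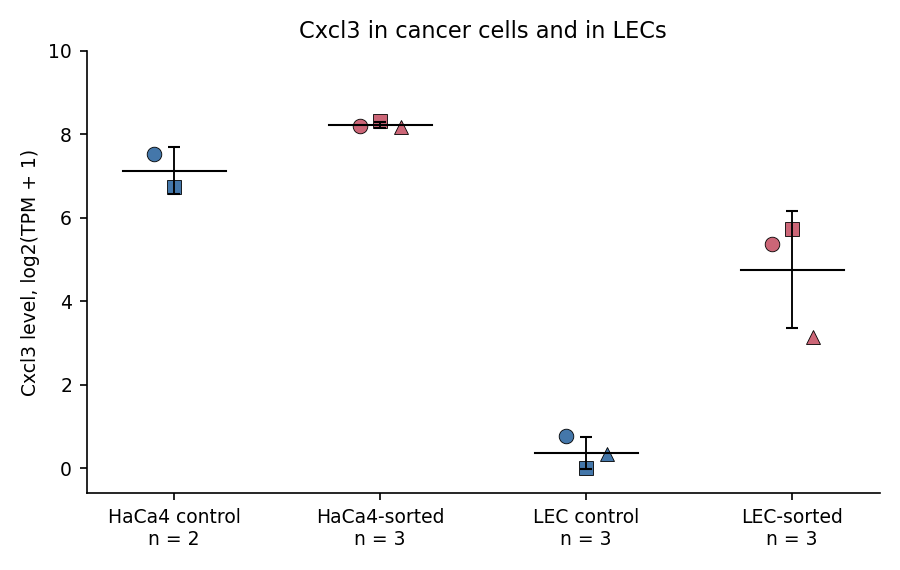
*Cxcl3* in every library of both cell lines as log2(TPM + 1), with the symbol for the replicate number and lines and bars for the mean and SD. All HaCa4 libraries lie above all LEC libraries, and the rise from control to sorted is longer in LECs.

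Because *Cxcl3* was abundant in HaCa4 cells, transcripts of the other cell type in a sorted population were examined beside it. Of 12 keratinocyte and carcinoma markers, *Krt8* was the 1 listed for LECs. *Krt8* was at 0 in all 3 LEC controls and at 0.19, 2.19, and 0.89 TPM in LEC-sorted replicates 1 to 3, against 205 to 238 TPM in HaCa4-sorted. The *Krt8* level in LEC-sorted was 0.0859%, 0.99%, and 0.402% of the HaCa4-sorted mean, and the *Cxcl3* level was 13.6%, 17.5%, and 2.63% of it. This rests on 1 marker, and the part of HaCa4 RNA in the LEC result was not tested. In HaCa4-sorted, 12 of 15 endothelial markers were listed, and their summed level was 0.41 to 0.86 TPM in the controls and 15.6 to 251 TPM in the sorted replicates. Of these markers *Emcn* and *Plvap* passed, with the same losses as the HaCa4 calls above, and 10 did not pass the test, and *Cxcl3* varied by 1.11 times over the same sorted replicates. The part of endothelial RNA in the HaCa4 result was not tested. Of the endothelial markers, *Kdr* and *Pdpn* were listed for LECs. *Kdr*, a VEGF receptor, fell by 0.59 on the log2 scale (adjusted p = 0.0126 from limma), with 137 to 172 TPM in single culture and 88.5 to 117 TPM after co-culture. *Pdpn*, a lymphatic surface protein, rose by 1.28 (adjusted p = 0.00769 from limma), with 97.0 to 179 TPM in single culture and 239 to 436 TPM after co-culture. Of the other lists, 0 of 8 neutrophil and 0 of 6 macrophage markers were listed. Of 6 platelet markers, *Pf4* itself was the 1 listed.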

How the data were processed

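RNA of 11 mouse cell line libraries was sequenced on the BGISEQ platform. Per the submitters' processing notes and the study's methods, reads were cleaned by SOAPnuke and mapped by HISAT (2.0.4) on GRCm38.p6, and the authors used DESeq2 to find changed genes. The deposited values are TPM, given by gene for every library, and the tool that gave them is not given in the sources used here. They cover only selected genes, with 1.84% to 3.85% of each library's TPM. TPM keeps no read number, so depth and counting error are unknown, and precision rests on the spread between replicates.

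Sorted and control libraries of each cell line were compared with limma 3.58.1 in R 4.3.3 (empirical Bayes with a mean-variance trend, log2(TPM + 1), no filter, two-sided, Benjamini-Hochberg over all listed genes of that line). Such fold changes understate the change of low genes. The step was also run on simulated data in which many genes were left unchanged. The listed genes here were selected as changed, so that run does not cover this setting. The text names the members, the 3 listed genes nearest to each in profile, and the listed genes of the pathway and cell type marker lists. Members, lists, and tests were chosen with earlier results of these data known. Coordinates and promoters are from RefSeq (GRCm38.p6), and transcripts from GENCODE M21, matched by RefSeq accession. Alternatives were pseudocounts of 0.1 and 5, filters at a mean of 1 or 10 TPM, median scaling, limma without the trend, a log2 threshold of 1, a replicate block, and leaving out each library. For the ratios, a pseudocount of 0.1 was added after seeing the data. Ratios of genes used TPM, or TPM + 1 where a value was 0. Tables, permutation tests, and plots were made with pandas 2.3.3, scipy 1.17.1, and matplotlib 3.10.9 in Python 3.11.15.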

Additional observations from a re-analysis of the deposited data

Results flagged for a closer look

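The change of *Cxcl3* differed between the cell lines by 3.29 on the log2(TPM + 1) scale (standard error 0.80), being 4.39 in LECs and 1.10 in HaCa4 cells, and this difference passed the interaction test in limma (adjusted p = 0.00268). Over 18 alternatives it lay between 1.53 and 5.28, with adjusted p-values from 1.98e-05 to 0.0459. In groups of 2 or 3 libraries no single library was tested for standing apart.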

How the results depend on the processing

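All 5 members kept their rise and their call in LECs under each of the 14 alternatives, and the log2 fold change ranged from 5.60 to 6.64 for *Cxcl1*, 2.65 to 6.59 for *Cxcl2*, 2.60 to 6.39 for *Cxcl3*, 4.43 to 6.15 for *Cxcl5*, and 1.48 to 2.45 for *Pf4*. The pseudocount moved *Cxcl2* and *Cxcl3* most, by its construction, because their controls were near 0. Of the 191 listed LEC genes, 184 passed (122 higher), against 110 (46 higher) with median scaling and 95 at a log2 threshold of 1. *Cxcl3* in HaCa4 lost its call with median scaling (0.24), without the trend (1.10, adjusted p = 0.0735 from limma), and under a replicate block with the second control numbered 3 as in its column name (1.06, adjusted p = 0.0693). With that numbering HaCa4-sorted replicate 2 has no matching control, and the change equals the one without it. Leaving out 1 library gave 0.70 to 1.497, and the call was lost without control replicate 2 or sorted replicate 3. Fits with 1 control left assume that it varies like the sorted libraries. The cause of these losses was not tested. Of the listed HaCa4 genes 87 passed, against 140 with median scaling, 39 at a log2 threshold of 1, 177 and 33 with pseudocounts of 0.1 and 5, and 22 with the block just named. The number was 0 without the trend in limma, with 161 at an unadjusted p under 0.05. Leaving out 1 library gave 0 to 194, the 0 without control replicate 2 (70 unadjusted) or sorted replicate 3 (126 unadjusted), 6 without control replicate 1, and 194 without sorted replicate 1. Median scaling, with the median taken over the listed genes, shifted the HaCa4 log2 fold changes by a median of -0.72.

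Whether replicate numbers pair the LEC libraries is not settled. Same-numbered control and sorted libraries had deviations from their group means that correlated at 0.23, 0.07, and -0.02 across genes. With a replicate block by the labels, all 5 members passed, each at a lower adjusted p from limma than without it. Under the block 182 listed LEC genes passed. The log2 fold change of *Cxcl3* in HaCa4 was then 1.13, with 115 listed HaCa4 genes past the thresholds. The interaction under the block was 3.26. HaCa4-sorted replicate 3 has no control of its number, so it adds nothing to these estimates. Both values equal those without that library. Whether same-numbered LEC-sorted and HaCa4-sorted libraries share a co-culture is not given in the sources used here. The interaction test treated them as independent.

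Among the ratios, the pseudocount of 0.1 reversed *Cxcl1*/*Cxcl2* (-0.28), *Cxcl1*/*Cxcl3* (-0.087), *Cxcl2*/*Cxcl5* (from -1.09 to 0.46), and *Cxcl3*/*Cxcl5* (from -1.19 to 0.27). The ratio *Cxcl1*/*Cxcl5*, at 0.11, ranged from -0.43 without LEC control replicate 3 to 0.45 when 1 library was left out, and was -0.01 without LEC-sorted replicate 1. With a pseudocount of 1 it was 0.63, the highest of its alternatives, and with 0.1 it was 0.18.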
